A study of Homo sapiens with 4 samples.

Results

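The m6A intervals described here lie in 10 genes of mitosis, the centrosome and cell division: CENPF, CENPE, CIT, KIF20B, CDK5RAP2, ASPM, MKI67, TOP2A, KIF11 and NUMA1. An interval belonged to a gene when it overlapped the window given for that gene (hg19) on the strand of the gene. The windows held 63 of the 13691 intervals of the METTL3 knockdown list and 18 of the 11038 intervals of the list without knockdown. All of these lay wholly inside the windows. The genes were selected on measured values, the number of intervals gained with knockdown around CENPF and some of the other genes, which was known from an earlier pass over these lists. Counts and scores by condition are therefore a description, with no test.

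The data come from 16-HBE, an established line of human bronchial epithelial cells, and from MeRIP-seq, in which poly(A) RNA precipitated with an m6A antibody is sequenced beside RNA that was not precipitated. In the knockdown condition, METTL3 was reduced with siRNA and the cells spent 24 h in medium with 5% cigarette smoke extract (CSE). In the other condition, labelled WT for genotype and called CSE below, the cells had the same exposure and no siRNA is named. All cells of both conditions were thus smoke-exposed, and reduced METTL3 cannot be told apart from transfection. Each condition had an antibody library, an input library and 1 deposited list of enriched intervals, so no value has a replicate spread. The series' design text names 3 replicates, and whether they were pooled into these lists is not stated.

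METTL3 is the catalytic subunit of the complex that places m6A on messenger RNA, mostly within a short consensus around an adenosine followed by cytosine. The mark is known for long internal exons and for the region around stop codons, and it acts on RNA stability, splicing and translation through reader proteins. The 10 genes encode proteins that act in cell division, and many of them are made mainly in cells that are cycling. The lists hold no transcript levels, so more methylation of a transcript, more of the transcript and more dividing cells cannot be told apart, and neither can fewer such cells and less RNA per cell.

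More intervals were listed with METTL3 knockdown, and nearly all of the added ones were single short coding exons. The knockdown list held 63 intervals in these genes, against 18 in CSE, a ratio of 3.5 (95% interval from Wilson limits 2.08 to 5.88), where the whole lists had a ratio of 1.24. Of the 63 knockdown intervals, 47 had no overlap of at least 1 bp in the CSE list, a share of 74.6% (Wilson 95% interval 62.7 to 83.7), and over the whole knockdown list the share was 35.5%. Of the 18 CSE intervals, 2 had no overlap in the knockdown list, a share of 11.1% (3.10 to 32.8), and over the whole CSE list the share was 19.9%. The 95% intervals cover counting error only and treat the listed intervals as independent. Many of these were neighbouring exons of the same gene, so the 95% intervals may be too narrow. Since the genes were chosen for gains, nothing about them is read from the distance to the whole-list shares or ratio. Covered length differed less than the number of intervals, with 36013 nt in the knockdown list and 27489 nt in the CSE list, or 1.31 times as much. The whole lists also differed less in covered length, with a ratio of 1.09, than in number, with 1.24.

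The gain was not shared by all genes. More intervals were listed with knockdown for 6 genes, an equal number for 1, fewer for 2, and KIF11 had none in either list. CENPF, CIT, CDK5RAP2 and KIF20B held 41 of the 47 knockdown-only intervals. By role, the kinetochore genes had 18 intervals with knockdown and 3 in CSE, and the cytokinesis genes 20 with knockdown and 2 in CSE. The genes of the centrosome and spindle poles had 19 with knockdown and 6 in CSE. The genes of chromosome structure had 6 with knockdown and 7 in CSE. Without CENPF the numbers were 49 in the knockdown list and 15 in the CSE list, or 3.27 times as many.

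**Figure D1:**
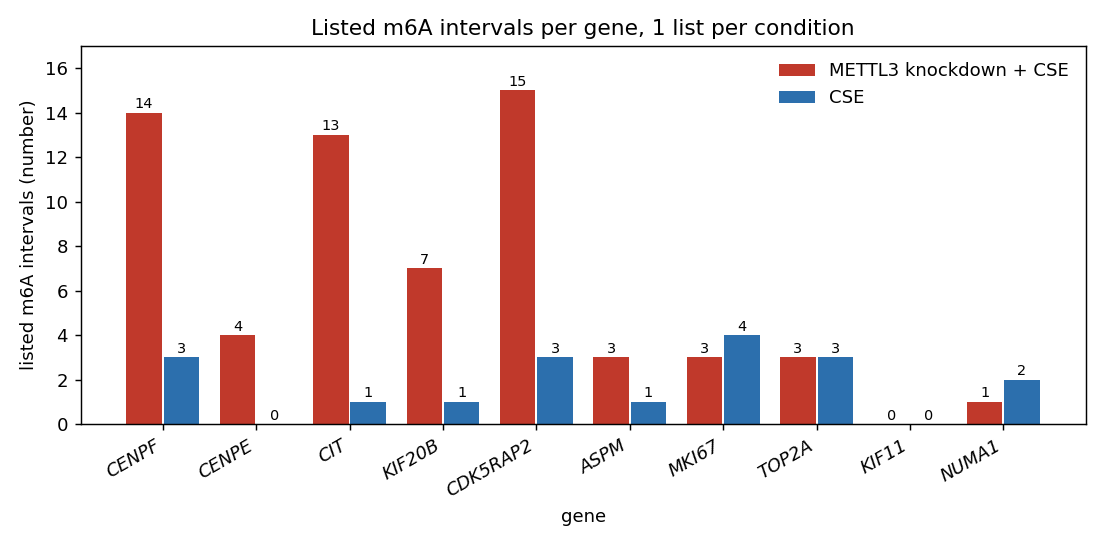
Number of listed m6A intervals (y axis) in each of the 10 genes (x axis), with the METTL3 knockdown list in red and the CSE list in blue, 1 list per condition and no replicates. CDK5RAP2, CENPF and CIT have 15, 14 and 13 knockdown intervals and 3, 3 and 1 CSE intervals, while MKI67 and NUMA1 have 1 fewer with knockdown.

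Nearly all intervals of these genes had the size and spacing of exons. The 2 lists together held 67 distinct intervals in these genes. Their widths and their distances from one another were compared with the exon lengths and distances of GENCODE 29 transcripts, an annotation of another build, without carrying any position over. For 62 of the 67, width and distance equalled an exon of 1 transcript per gene to the base, 5 of them, all in CIT, after an intron whose length differed between the builds. A further 2, in CIT and NUMA1, had the width of an exon of another transcript. The remaining 3 lay inside 1 exon and ended short of it. Exon numbers below are those of the transcript that matched most intervals in each gene. Intervals are named by exon below, which rests on this match of lengths and distances.

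Sequences of short coding exons show what such an interval holds. For each gene that had a short interval in both lists (up to 300 nt), the exon of that kind with the highest score in the knockdown list is printed, followed by the exon with the highest score among those listed only with knockdown, where the gene had one. They were read by exon number from the GENCODE 29 transcripts (GRCh38), as DNA letters of the RNA strand, and were picked after the scores were seen. Capitals mark every m6A consensus word on that strand, which is AAAC or AGAC or GAAC or GGAC or TAAC or TGAC followed by A or C or T; words may overlap.
CENPF exon 14 (chromosome 1), both lists: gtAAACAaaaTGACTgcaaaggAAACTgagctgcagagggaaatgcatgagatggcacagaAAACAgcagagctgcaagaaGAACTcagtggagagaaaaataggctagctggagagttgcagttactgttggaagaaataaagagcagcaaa
CENPF exon 15 (chromosome 1), knockdown only: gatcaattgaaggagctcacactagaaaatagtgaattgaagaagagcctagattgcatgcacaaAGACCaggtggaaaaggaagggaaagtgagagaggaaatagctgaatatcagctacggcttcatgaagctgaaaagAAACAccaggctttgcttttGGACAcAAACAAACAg
CIT exon 20 (chromosome 12), both lists: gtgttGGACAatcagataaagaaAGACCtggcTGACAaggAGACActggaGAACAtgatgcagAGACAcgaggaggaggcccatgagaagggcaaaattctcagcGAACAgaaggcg
CIT exon 18 (chromosome 12), knockdown only: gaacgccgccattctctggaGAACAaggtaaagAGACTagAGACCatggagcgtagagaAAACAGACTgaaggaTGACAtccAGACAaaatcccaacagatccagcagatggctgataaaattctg
CDK5RAP2 exon 12 (chromosome 9), both lists: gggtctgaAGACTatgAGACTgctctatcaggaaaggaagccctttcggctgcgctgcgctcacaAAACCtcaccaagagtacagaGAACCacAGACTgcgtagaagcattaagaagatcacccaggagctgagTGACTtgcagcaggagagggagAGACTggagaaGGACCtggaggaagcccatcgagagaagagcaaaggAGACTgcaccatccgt
CDK5RAP2 exon 8 (chromosome 9), knockdown only: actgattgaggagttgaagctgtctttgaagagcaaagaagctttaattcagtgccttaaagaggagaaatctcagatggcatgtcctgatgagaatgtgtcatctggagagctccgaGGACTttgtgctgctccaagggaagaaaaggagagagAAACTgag
TOP2A exon 28 (chromosome 17), both lists: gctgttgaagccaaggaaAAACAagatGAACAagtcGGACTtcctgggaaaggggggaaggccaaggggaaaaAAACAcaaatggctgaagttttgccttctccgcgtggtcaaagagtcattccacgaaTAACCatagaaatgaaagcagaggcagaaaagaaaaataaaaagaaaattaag

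Each of these 7 exons held at least 2 consensus words, and CDK5RAP2 exon 12 held 9. Holding any word does not set them apart, since 91.8% to 98.1% of internal exons of exactly the same length in protein-coding genes held at least 1. The number of words per exon was not compared with those exons. The strong form, GGAC followed by A or C or T, was absent from CENPF exon 14 and CIT exon 18 and occurred once in each of the others. Among internal exons of the same length, 37.6% to 56.3% held it. A word match is not a mapped m6A site.

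CENPF, a large coiled-coil protein of the outer kinetochore that accumulates before mitosis, had 14 of its 20 exons in the knockdown list and 3 in the CSE list. The 3 exons in both lists were neighbours. Exon 12 is the widest interval of the gene, 3404 nt at chr1:214813264-214816667 (plus strand), and scored 3100.0 in the knockdown list and 529.8 in the CSE list. Exon 13, 2844 nt at chr1:214817900-214820743, scored 3100.0 in the knockdown list and 618.4 in the CSE list, its highest for this gene. Exon 14, 153 nt at chr1:214822018-214822170 and printed above, scored 1114.8 in the knockdown list and 65.1 in the CSE list. The score is the authors' value for each interval on a scale that is not stated, running from 50.02 in both lists, with values piled up at 3100. It orders intervals within a list, and a pair of scores from both lists does not measure a change.

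The 11 other CENPF exons were listed with knockdown only, on both sides of that core. Upstream of it, exons 2, 4, 6, 7, 8, 9, 10 and 11 scored 356.0, 54.5, 70.2, 106.8, 158.2, 101.1, 259.5 and 78.7, in that order, with widths of 203, 122, 292, 203, 126, 129, 123 and 136 nt. Downstream of it, exons 15, 16 and 19 scored 577.5, 531.0 and 296.0, with widths of 177, 162 and 179 nt. Exons 6 to 16 made an unbroken run of 11 exons. The core scored highest in the gene, and the exons just 3′ of it next. Of the upstream exons, all but exon 2 scored below the median of the whole knockdown list, 280.1. Exon 2 is partly untranslated, and the other 13 are wholly coding. The last exon of 998 nt, which holds the stop codon and the untranslated end, was in neither list.

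**Figure D2:**
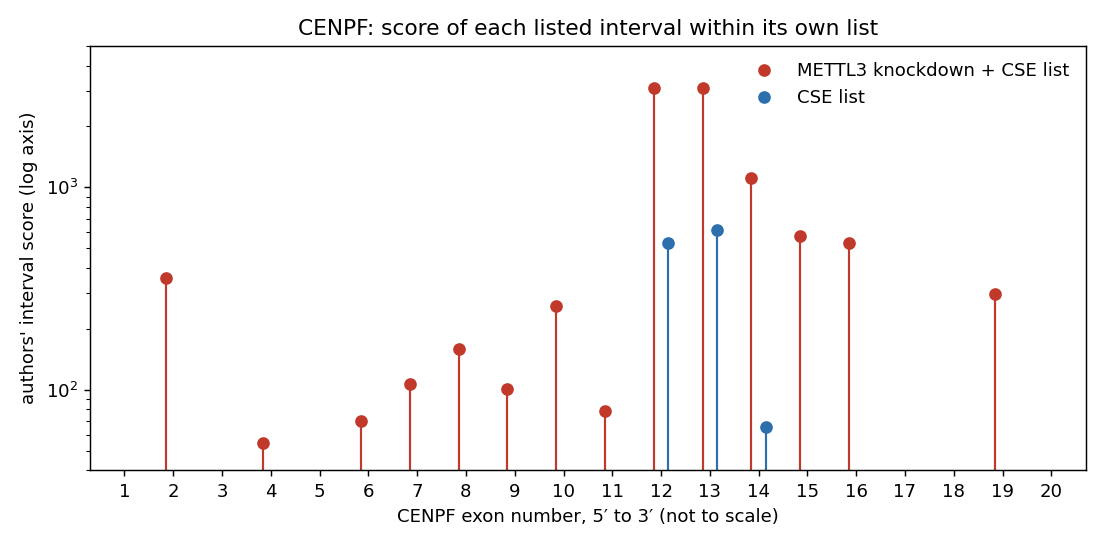
The authors' score (y axis, log scale) of each listed CENPF interval against its exon number (x axis, 5′ to 3′, not to scale), red for the METTL3 knockdown list and blue for the CSE list, each score being a value within its own list. Exons 12 to 14 are in both lists, and the other 11 marked exons are in the knockdown list alone, with scores from 54.5 to 577.5.

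CENPE, the kinetochore motor that carries chromosomes to the spindle equator, had 4 of 49 exons in the knockdown list and 0 in the CSE list. In transcript order, exons 27, 29, 33 and 43 scored 172.9, 141.8, 394.6 and 99.2, with widths of 291, 291, 288 and 219 nt. None of the 4 neighboured another. The highest score belonged to exon 33, at chr4:104065488-104065775 (minus strand), and 58.6% of the knockdown list scored below it. A pair of exons of the same 291 nt length, numbers 36 and 38, were in neither list.

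The cytokinesis genes showed the gain with almost no CSE counterpart. CIT encodes citron kinase, which organises the midbody, and had 13 intervals with knockdown and 1 in CSE. The shared interval was exon 20, 117 nt at chr12:120198743-120198859 (minus strand), which scored 582.4 in the knockdown list and 50.6 in the CSE list. It was the highest CIT score in the knockdown list, while only 0.444% of the CSE list scored lower. Its neighbours made a run of 7 exons with it, numbers 17 to 23. Before exon 20, exons 14, 17, 18 and 19 scored 298.8, 76.4, 483.0 and 345.5, with widths of 171, 141, 126 and 96 nt. After it, exons 21, 22, 23 and 25 scored 185.5, 276.4, 82.3 and 72.6, with widths of 110, 175, 198 and 198 nt. Towards the 3′ end, exons 28, 29 and 47 scored 126.5, 63.6 and 87.2, with widths of 105, 141 and 304 nt, the last being the widest CIT interval (chr12:120127956-120128259). An interval of 243 nt with a score of 109.0 covered exon 26 and ran beyond it, with the length of an exon of another CIT transcript. The 3 highest CIT scores in the knockdown list thus belonged to the neighbouring exons 18, 19 and 20. The last exon of 2466 nt was not listed.

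KIF20B, a kinesin motor of late cytokinesis, had 7 intervals with knockdown and 1 in CSE. The shared one was exon 20, its widest at 1231 nt (chr10:91497144-91498374, plus strand), which scored 1180.5 in the knockdown list and 110.6 in the CSE list. The 6 knockdown-only exons all lay 3′ of it. Exons 22, 23, 24, 25, 26 and 29 scored 90.9, 128.0, 135.1, 221.4, 456.0 and 144.8, with widths of 120, 61, 126, 125, 156 and 198 nt. The first 5 of them are neighbours, and exon 26 had the highest of these scores. Exon 23 was the shortest interval of all 10 genes and was the only knockdown-only exon that held no consensus word. None of the 19 exons before exon 20 was listed.

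**Figure D3:**
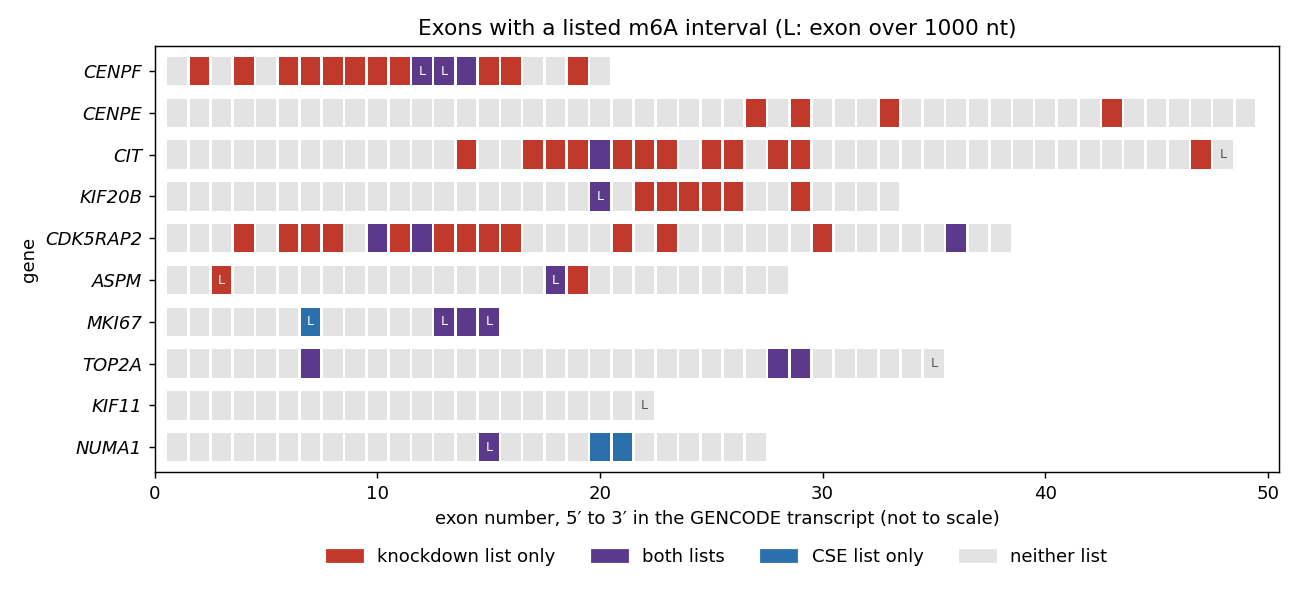
Exons (x axis, numbered 5′ to 3′ in 1 GENCODE 29 transcript per gene, not to scale) of the 10 genes (y axis), red where an interval was in the knockdown list only, purple in both lists, blue in the CSE list only and grey in neither, with L for exons over 1000 nt. Red exons lie directly beside purple ones in CENPF, CIT, CDK5RAP2 and ASPM, the red exons of KIF20B start at exon 22 with its purple exon at 20, and exons 20 and 21 of NUMA1 are covered by 1 interval.

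CDK5RAP2, a centrosome protein that brings microtubule-nucleating complexes to the spindle poles, had the most intervals, 15 with knockdown and 3 in CSE, out of 38 exons. Exon 12, 219 nt at chr9:123280705-123280923 (minus strand), scored 705.2 in the knockdown list, its highest there, and 147.7 in the CSE list. Exon 10, 120 nt at chr9:123290084-123290203, scored 360.7 in the knockdown list and 150.0 in the CSE list, the highest of this gene in CSE. Exon 36, 127 nt at chr9:123156790-123156916, scored 101.2 in the knockdown list and 102.9 in the CSE list. It was the only interval with identical borders in these genes whose score was lower in the knockdown list.

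The 12 other CDK5RAP2 exons were listed with knockdown only and mostly surrounded exons 10 and 12. Exons 4, 6, 7, 8 and 11 scored 177.3, 127.5, 114.9, 406.9 and 52.0, with widths of 111, 124, 155, 163 and 93 nt. Exons 13, 14, 15 and 16 scored 233.2, 259.4, 276.9 and 128.9, with widths of 171, 144, 101 and 131 nt, and completed a run of 7 neighbours from exon 10. Farther 3′, exons 21, 23 and 30 scored 93.1, 96.5 and 116.4, with widths of 418, 123 and 190 nt, exon 21 being the widest (chr9:123215734-123216151). The longest exon of the transcript, number 24 with 574 nt, was in neither list.

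ASPM, a spindle pole protein known as a microcephaly gene, had 3 intervals with knockdown and 1 in CSE. Its long exon 18 was covered whole in the knockdown list, 4755 nt at chr1:197069561-197074315 (minus strand) with a score of 780.1. In CSE an interval with the same 3′ border covered 3882 nt of it (chr1:197069561-197073442) and scored 88.6. Exon 3, 1480 nt at chr1:197111461-197112940, was listed with knockdown only with a score of 238.1, and was the widest knockdown-only interval of the 10 genes. Exon 19, 167 nt, was also knockdown only and scored 124.0.

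NUMA1, which anchors dynein and gathers microtubules at the poles, went the other way, with 1 interval with knockdown and 2 in CSE. Its exon 15, 3366 nt at chr11:71723941-71727306 (minus strand), had 3100.0 in both lists. The second CSE interval, 1657 nt at chr11:71718235-71719891, scored 454.5 and had no overlap with the knockdown list. It ran over exons 20 and 21 and adjoining intron sequence, with the length of an exon of a NUMA1 transcript annotated as a target of nonsense-mediated decay. KIF11, the motor that pushes the spindle poles apart, had no interval on either strand of its window in either list. The nearest listed interval of either strand ended 19149 nt before the window in the knockdown list and 55694 nt before it in CSE.

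MKI67 encodes Ki-67, the proliferation marker that coats mitotic chromosomes, and it had 3 intervals with knockdown and 4 in CSE. Exon 13, the widest interval of the 10 genes with 6845 nt (chr10:129900843-129907687, minus strand), encodes the Ki-67 repeats and had 3100.0 in both lists. Exon 14, 444 nt at chr10:129899522-129899965, scored 3100.0 in the knockdown list and 1061.5 in the CSE list. Of the last exon, 2595 nt were listed with knockdown, with a score of 734.3, and 1513 nt in CSE, with a score of 256.4, from the same splice site. Exon 7, 1080 nt at chr10:129913192-129914271, was in the CSE list only, with a score of 72.8. Since the last exon was listed farther with knockdown, the covered length was almost equal, 9884 nt with knockdown and 9882 nt in CSE.

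TOP2A, the topoisomerase that untangles sister chromatids, had the same 3 exons in both lists. Exon 28, 183 nt at chr17:38552535-38552717 (minus strand), scored 1702.3 in the knockdown list and 517.3 in the CSE list, the highest of the gene in both. Exon 29, 91 nt at chr17:38551701-38551791, scored 1641.0 in the knockdown list and 229.0 in the CSE list. Exon 7, 213 nt at chr17:38569011-38569223, was the widest and scored 144.8 in the knockdown list and 81.3 in the CSE list. The order of the 3 exons by score was the same in both lists.

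Among the listed exons of these genes, long internal ones were mostly in both lists and short ones mostly in the knockdown list alone. The 10 transcripts have 8 internal exons over 1000 nt. Of these, 7 were in the knockdown list, all but MKI67 exon 7, and 7 in the CSE list, all but ASPM exon 3. Of all 315 exons, 290 were of up to 300 nt. Of these 290, 52 held a knockdown interval and 10 a CSE interval, with the NUMA1 interval counted for both exons it covers. Since the genes were chosen for gains and most of their exons are short, these counts are a description only. No counts by exon length over all genes are given beside them. The median width was 156 nt for the 47 knockdown-only intervals (range 61 to 1480) and 331.5 nt for the 16 knockdown intervals that overlapped the CSE list. Over the whole knockdown list these medians were 175 and 267 nt, so shorter knockdown-only intervals were not particular to these genes. Only 3 of the 47 were over 300 nt. No first exon was listed in either condition, and of the 10 last exons only that of MKI67 was, in both.

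Within the knockdown list, knockdown-only intervals stood low and overlapping ones high. The median score was 135.1 for the 47 knockdown-only intervals (range 52.0 to 577.5) and 1147.7 for the 16 overlapping ones (range 101.2 to 3100.0), beside 116.5 and 506.7 over the whole list. In the CSE list, the 16 overlapping intervals had a median of 189.5, beside 275.3 over the whole list. Of the 14 intervals with identical borders, 11 had the higher score in the knockdown list, 2 had 3100.0 in both and 1 the lower. A higher score in the knockdown list was also the rule for 73.2% of the 7258 intervals with identical borders in the whole lists, so score levels differ between the lists in general. The 14 had median scores of 1410.8 in the knockdown list and 189.5 in the CSE list, beside 534.5 and 275.8 for the 7258. Since the genes were chosen for gains, nothing about them is read from these medians. Read depth of the libraries was not used here.

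**Figure D4:**
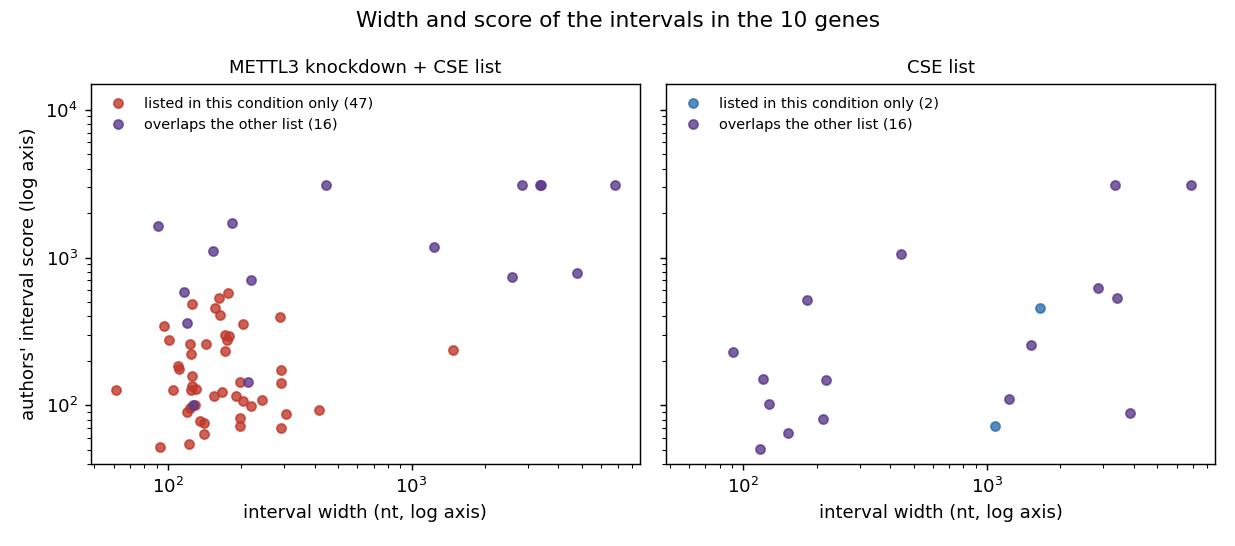
The authors' score (y axis, log scale) against interval width in nt (x axis, log scale) for the intervals of the 10 genes, the METTL3 knockdown list on the left and the CSE list on the right, purple for intervals that overlap the other list. The 47 knockdown-only points lie at 61 to 1480 nt and scores of 52.0 to 577.5, below most of the 16 purple points of that list.

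The strong consensus form was counted in short exons by whether they were listed. GGAC followed by A or C or T occurred in 5 of the 8 exons of up to 300 nt listed in both conditions (62.5%), in 15 of the 44 listed with knockdown only (34.1%) and in 56 of the 226 internal exons in neither list (24.8%). Per length this was 4.09, 2.69 and 2.20 words per kb, in that order. Both short exons covered by the CSE-only interval of NUMA1 held it (100%), at 9.88 words per kb. Over 162989 internal exons of that length in protein-coding genes, 38.4% held it, at 4.09 words per kb. The groups differ in exon length, and no test was made, since the listing of these exons chose the genes. Among long exons, MKI67 exon 13 held 28 such words, or 4.09 per kb, while ASPM exon 18 held 3, or 0.631 per kb.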

How the data were processed

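The 4 samples were an m6A antibody library and an input library of each of 2 conditions of 16-HBE cells. The submitters' processing notes name HISAT2 2.0.4 and the build hg19. Each of the 2 lists the authors deposited holds chromosome, start, end, name, score and strand. Interval names start with MACS. Its version and settings, and whether replicates were pooled, are not stated in the labels or files, and read depths were not used. The score is the authors' deposited value per interval and was used to order intervals within a list. For intervals with identical borders, the list with the higher score was also counted, without reading a change from it.

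Intervals were assigned to windows on the gene's strand, counted, and compared between lists by overlap of at least 1 bp on the same strand (Python 3.11.15). Shares carry Wilson 95% intervals (counting error only, with listed intervals taken as independent). With 1 list per condition there is no test. Exon lengths, distances and sequences came from GENCODE 29 (GRCh38); no position was carried between builds. The transcript matching most intervals was used, then the one with the longest coding sequence. The overlap rules and the matching of whole exons at equal distances were tested on simulated data. The simulation held no intron of differing length and no interval whose borders differed from an exon. Matching in those cases was not tested.

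The members, lists and rules were chosen with earlier results of these data known. All 10 genes are named, with the widest, the highest-scoring and, up to 12 per gene, every condition-only interval. A list of further mitosis genes was not analysed here, since it needs hg19 annotation. Alternatives were other overlap rules, strand, window and exon-width rules, and the upper 50% of each list by score.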

Additional observations from a re-analysis of the deposited data

How the results depend on the processing

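Of 42 alternative values, 33 stayed within counting error or within 1.5 times the reported number, 9 moved and 0 reversed. Among intervals scoring above the median of their list (the upper 50%), the number of intervals in the 10 genes was 24 with knockdown and 9 in CSE. The ratio was then 2.67, against 3.5 in the full lists, and 66.7% of the 24 had no overlap in the upper part of the CSE list. Of the same 24, 10 (41.7%) had none in the full CSE list. The median width in CSE became 1657 nt, against 762 nt in the full list, a move within the wide 95% order-statistic interval of that median (153 to 2844 nt, 18 intervals). The other 7 values that moved were differences per gene in that same upper part, where CENPF had 7 intervals with knockdown and 2 in CSE, CIT 4 and 0, and CDK5RAP2 3 and 0. MKI67 then had 3 in both. Requiring identical borders gave a knockdown-only share of 77.8% and a CSE-only share of 22.2%. In the whole lists, 7258 intervals had identical borders, of 13691 with knockdown and 11038 in CSE. The whole-list shares given earlier hold for overlap of at least 1 bp in the full lists. They are therefore no comparators for the shares under identical borders or in the upper 50%. Matching whole-list shares are not given for the upper 50%, so nothing about these genes is read from the 66.7% and 41.7%. Leaving out CENPF was added after seeing the data. The number of intervals limits precision most in CSE, where 18 were listed. No paired analysis was possible because each condition had 1 list and the labels carry no replicate numbers.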

Other observations

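The interval names carry running numbers that rise along each chromosome, and most numbers have no listed interval. If they count calls, they limit how many unlisted CSE calls could lie at exons listed with knockdown only. Between the listed CSE intervals that flank the CIT span on either strand, 3 numbers were unlisted, fewer than the 12 CIT exons that were knockdown only. Around ASPM 3 numbers were unlisted, with 2 knockdown-only exons. Around CENPF 20 were unlisted, with 11 knockdown-only exons. The 3 CENPF intervals of the CSE list had consecutive numbers. They are neighbouring exons with no knockdown-only exon between them, so this sets no limit on the 11. Around KIF20B 21 were unlisted, around CENPE 13, and around CDK5RAP2 28, of which 10 fell between its first and last CSE interval. Around the KIF11 window, which held no interval, 9 numbers were unlisted in the knockdown list and 10 in CSE. For the genes with a CSE-only interval, the knockdown list had 0 unlisted numbers around NUMA1 and 8 around MKI67. The flanking stretches also hold other genes, so these are upper limits for each gene.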
